A study of Mus musculus with 15 samples.

Results

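Endothelial cells line the blood vessels and smooth muscle cells wrap their walls, and each has miRNAs by which its presence in a tissue is often followed. The 4 miRNAs examined here, mmu-miR-126-3p and mmu-miR-126-5p of the endothelium and mmu-miR-143 and mmu-miR-145 of smooth muscle, were taken by their names from the 567 mouse miRNAs on the array. The rule uses no measured value, although the set was drawn up with earlier results of these data known. Total RNA of mouse liver grafts was labeled with Cy3 and hybridized to 15 single-color Agilent miRNA arrays in 5 groups, with 3 mice per group and 1 graft per array. The allograft groups were livers of male B10.BR (H2-Kk) donors in B10.D2 (H2-Kd) recipients, without immunosuppression, removed on day 5, day 8, day 14 or day 100 after transplantation. The fifth group was syngeneic grafts on day 5. The strain label names the allogeneic pair for every array, so the syngeneic grafts were known from their titles and their strain is not given there. The ages of the mice are not given in the sources used here. No group held untransplanted livers or syngeneic grafts of a later day, so time after surgery and the allogeneic state cannot be told apart on days 8, 14 and 100.

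MiR-126 is made from within Egfl7, a gene expressed in endothelium. Its 3p arm is known to keep vessels intact by restraining Spred1 and Pik3r2, inhibitors of signaling by vascular endothelial growth factor, and to restrain VCAM-1, the adhesion molecule that recruits leukocytes to an inflamed vessel wall. The 5p arm comes from the same hairpin and is known to act on Dlk1 in dividing endothelium. MiR-143 and miR-145 are cut from a shared primary transcript, are abundant in smooth muscle, and are known to favor its contractile state. In a liver the first pair would mark sinusoidal and larger vessel endothelium, and the second the walls of portal vessels and hepatic arteries.

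The mature sequence of miR-126-3p is shown because all tests on the set rest on it. RefSeq (GRCm38.p6) lists it as miR-126a-3p, and its seed, bases 2 to 8, is in capitals. The gene lies at chr2:26591357-26591429 on the plus strand, inside the span of Egfl7 (chr2:26581083-26592682). In the hairpin below it, the capitals mark the 3p arm, which spans chr2:26591402-26591423.
miR-126a-3p: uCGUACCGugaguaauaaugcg
Mir126a hairpin: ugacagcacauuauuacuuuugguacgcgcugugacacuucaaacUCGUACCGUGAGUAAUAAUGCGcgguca
The miR-126a-3p seed occurred in 1 of 1738 mature mouse sequences of the RefSeq table, which was miR-126a-3p itself, so no miRNA listed there shares its seed. On the opposite strand of the same region RefSeq lists a second hairpin, Mir126b (chr2:26591363-26591420), and one of its mature products lies across from the 3p arm, at chr2:26591399-26591420. The capitals below mark the seed of that product.
miR-126b-5p: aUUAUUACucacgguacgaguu
No mature sequence under the names of miR-126-5p, miR-143 or miR-145 was found in that table.

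Each array yielded 60 to 115 detected miRNAs, and no spot was saturated. Detection of a miRNA required that a share of 0.5 or more of the spots of 1 of its probes was flagged as well above background. The liver label held, since miR-122, the main hepatocyte miRNA, was detected on 15 of 15 arrays. Replicate 1 of day 100 stood apart: its dimmest detected miRNA had an intensity of 71.0 units, where those of the remaining arrays had 14.9 to 23.0. The arrays lay on 2 slides. Slide 1 held syngeneic replicates 1 and 2 and the allografts of days 8 and 14, and slide 2 held syngeneic replicate 3 and the allografts of days 5 and 100. Only the syngeneic group spanned both slides.

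Of the 4 miRNAs, miR-126-3p was detected on 15 of 15 arrays, miR-143 on 5, miR-126-5p on 4 and miR-145 on 0. Thus the arrays followed the endothelial marker by 1 of its arms, and the smooth muscle pair lay mostly or wholly within the background. The set is therefore described by the names of its miRNAs rather than as a reading of smooth muscle. In whole grafts, fewer cells of a type and less of a miRNA per cell cannot be told apart.

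**Figure D1:**
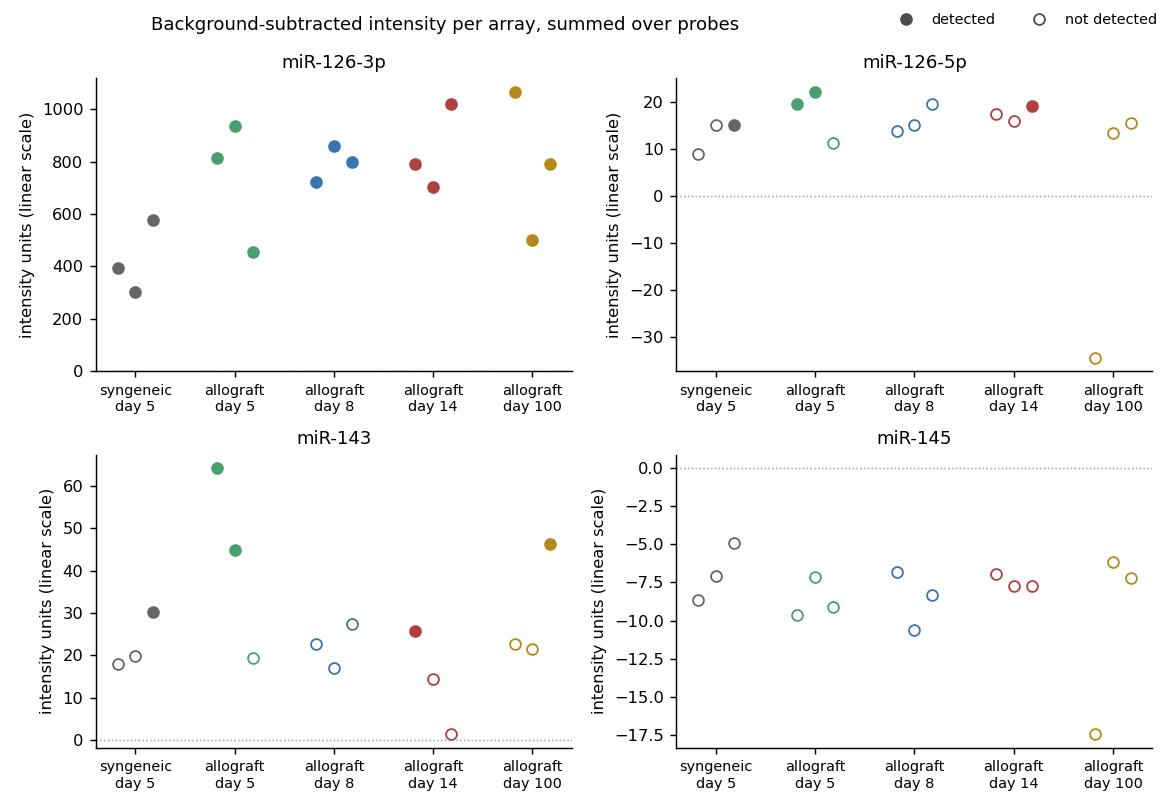
Background-subtracted intensity of miR-126-3p, miR-126-5p, miR-143 and miR-145 on each of the 15 arrays (linear scale, summed over the 2 probes of each miRNA, a separate axis per panel), with filled points where the miRNA was detected. MiR-126-3p was detected on all arrays at 302 to 1064 units, while miR-145 was negative on every array and the other 2 miRNAs were detected on 4 or 5 arrays.

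The intensity of miR-126-3p was 392, 302 and 575 units in the 3 syngeneic grafts. Allografts gave 814, 935 and 454 units on day 5, and 723, 858 and 798 on day 8. It was 790, 704 and 1018 on day 14, and 1064, 501 and 791 on day 100. The allograft arrays were brighter than the syngeneic arrays before scaling, with exceptions on days 5 and 100, where 1 array each lay below syngeneic replicate 3. Both probes of miR-126-3p, each printed as 6 to 10 usable spots, were above background on every array. The coefficient of variation over the spots of a probe was 1.25 to 7.64% of its mean, and the log2 ratio of the probes was 0.70 ± 0.06 (SD over 15 arrays).

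The arrays also differed in overall brightness, and the intensities were therefore divided by the 75th percentile of each array over the 52 miRNAs that every array detected. The divisor was 395 to 616 units on the syngeneic arrays and 457 to 1018 on the allograft arrays. After this division the scaled log2 signal of miR-126-3p was -0.39, -0.39 and -0.10 in the syngeneic grafts. It was -0.12, -0.02 and -0.01 for day 5 of the allografts, and 0.01, 0.14 and -0.06 for day 8. On day 14 it was -0.06, -0.09 and -0.000478, and on day 100 it was 0.09, -0.04 and 0.03. All arrays of days 8, 14 and 100 lay above all syngeneic arrays, on day 14 by a narrow margin, and day 5 overlapped with syngeneic replicate 3. Such a position above every syngeneic array was common, with 33% of the 103 tested miRNAs on each of days 8 and 14 and 12.6% on day 100, and 21.4% on day 5, where miR-126-3p was not among them.

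**Figure D2:**
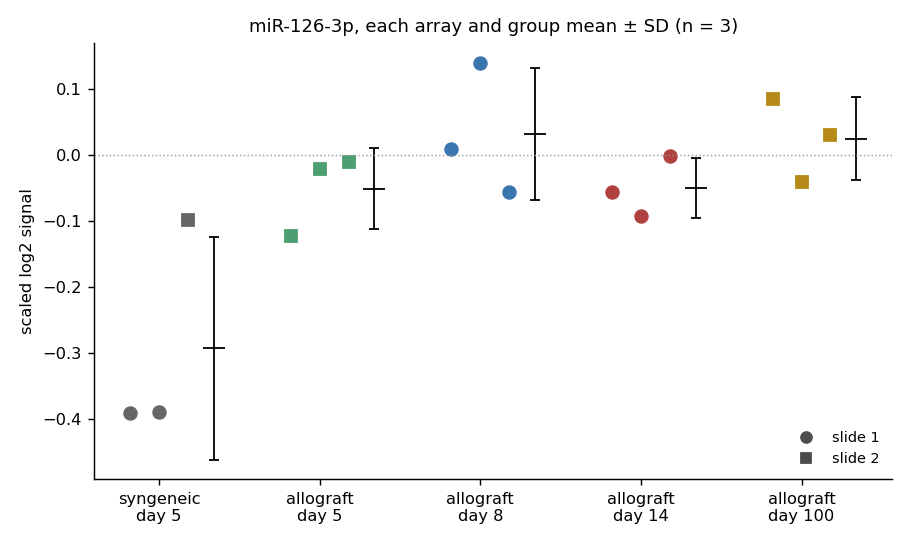
Scaled log2 signal of miR-126-3p on each array (circles, slide 1, and squares, slide 2), with the mean ± SD of each group of 3 arrays in black. Syngeneic replicates 1 and 2 sit at -0.39, syngeneic replicate 3 at -0.10, and the 12 allograft arrays between -0.12 and 0.14.

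Compared with the syngeneic grafts, miR-126-3p did not pass the test on any of the 4 days. Its mean scaled log2 signal was -0.29 ± 0.17 for syngeneic grafts (SD, n = 3). For the allografts it was -0.05 ± 0.06 (day 5), 0.03 ± 0.10 (day 8), -0.05 ± 0.05 (day 14) and 0.03 ± 0.06 (day 100). The log2 difference was 0.24 on day 5 (adjusted p = 0.177, limma with Benjamini-Hochberg adjustment over the 103 tested miRNAs) and 0.32 on day 8 (adjusted p = 0.0502). It was 0.24 on day 14 (adjusted p = 0.125) and 0.32 on day 100 (adjusted p = 0.0628), with a standard error of 0.12 throughout. In linear terms the allografts stood 1.18-fold, 1.25-fold, 1.18-fold and 1.25-fold above the syngeneic grafts. The 95% intervals of the log2 difference were -0.03 to 0.51 (day 5), 0.06 to 0.59 (day 8), -0.02 to 0.51 (day 14) and 0.05 to 0.59 (day 100). At an unadjusted p under 0.05, 2 of the 4 days passed, days 8 and 100. By comparison, limma called 25.2%, 40.8%, 45.6% and 31.1% of the tested miRNAs different on the 4 days.

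Leaving out 1 syngeneic array changed the call, as did some of the other settings given below. Without syngeneic replicate 3, the only syngeneic array on slide 2, limma called miR-126-3p higher on all 4 days, by 0.34, 0.42, 0.34 and 0.42 on the log2 scale (adjusted p = 0.0436, 0.0111, 0.0282 and 0.0119). In that fit 28.2%, 44.7%, 47.6% and 36.9% of the tested miRNAs were called. With the slide added to the fit as a block (the slide block), it was 0.42 on day 8 (adjusted p = 0.0111) and 0.34 on day 14 (adjusted p = 0.0282), both called. For days 8 and 14 this block only takes syngeneic replicate 3 out of the comparison, for any miRNA. These values are therefore those given above without that array, and not a further check. With the same block it was 0.05 on day 5 (adjusted p = 0.872) and 0.12 on day 100 (adjusted p = 0.616). That fit called 4.85%, 44.7%, 47.6% and 15.5% of the tested miRNAs on the 4 days. Within slide 1 alone, with the same 2 syngeneic arrays, it was again 0.42 on day 8 (adjusted p = 0.0311) and 0.34 on day 14 (adjusted p = 0.0543). There 41.7% and 48.5% of the tested miRNAs were called. Within slide 2 the single syngeneic array, assumed to vary like the others, gave 0.05 on day 5 and 0.12 on day 100, neither called. Whether syngeneic replicate 3 differed through its slide or through its mouse cannot be told apart. On the unscaled arrays miR-126-3p of replicate 3 was also the brightest of the syngeneic group, and 102 miRNAs were detected there against 71 and 79.

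The scaling itself bore on this miRNA. Among the 52 miRNAs used for scaling, miR-126-3p ranked 11th to 18th by brightness, and on 5 of 15 arrays it was one of those between which the 75th percentile was read, so that its scaled value is partly set by the scaling there. On these 5 arrays the scaled log2 signal lay between -0.01 and 0.14. With miR-126-3p left out of the scaling, the differences on the 4 days were 0.27, 0.37, 0.30 and 0.36, and days 8 and 100 were called (adjusted p = 0.0335 and 0.0438), beside 21.4%, 43.7%, 47.6% and 35% of the tested miRNAs on the 4 days. With each array scaled by its mean log2 signal over the other scaling miRNAs, they were 0.16, 0.30, 0.33 and 0.29, and days 8, 14 and 100 were called (adjusted p = 0.0381, 0.0197 and 0.0441), beside 28.2%, 45.6%, 53.4% and 48.5%. Adding the slide block to that scaling gave 0.21, 0.27, 0.31 and 0.33, and no day passed (adjusted p = 0.462, 0.1002, 0.0585 and 0.221). The sign was the same, higher in the allografts, under each of the 112 combinations of day and alternative, of which 29 passed the threshold. Many of these alternatives changed only the error or the set of tested miRNAs and left the difference as it was, so their sign could not turn. All share the same arrays, and neither count is one of independent checks.

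**Figure D3:**
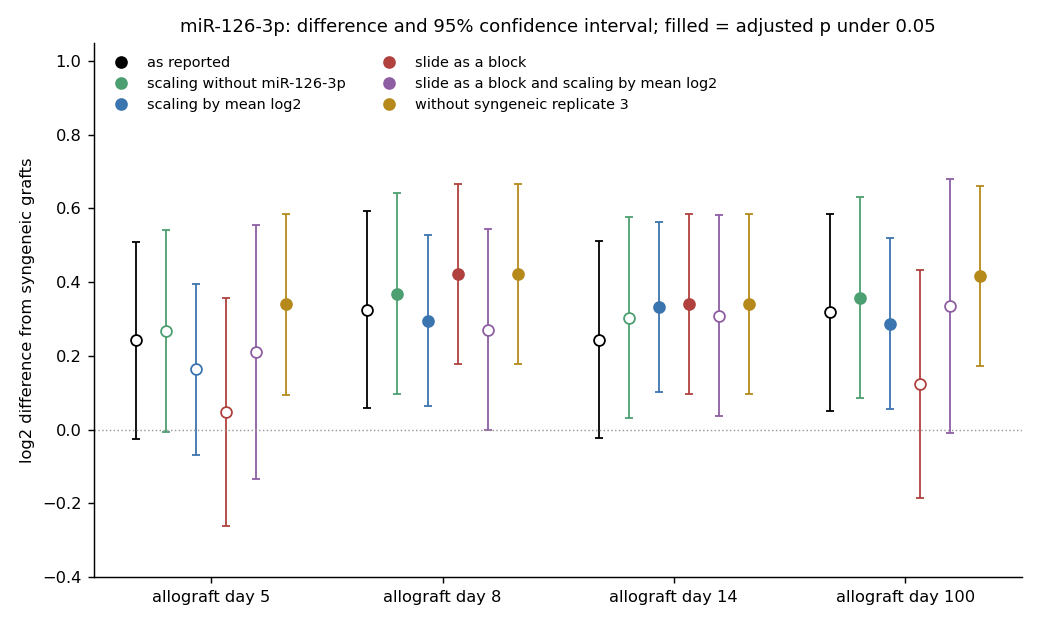
Log2 difference of miR-126-3p between the allografts of each day and the syngeneic grafts on day 5, with its 95% confidence interval, in the fit reported first and in 5 others, with filled points where the adjusted p was under 0.05. All 24 differences lie above 0, from 0.05 to 0.42, and the call depends on the scaling, the slide and syngeneic replicate 3.

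Between the allograft days, miR-126-3p differed by 0.08 or less on the log2 scale in the fit without the slide block. Day 14 minus day 8 was -0.08 (adjusted p = 0.793, limma with Benjamini-Hochberg adjustment; 5.83% of the tested miRNAs called), with a 95% interval of the fold from 0.786 to 1.14. Day 100 minus day 5 was 0.08 (adjusted p = 0.698; 29.1% called), with an interval from 0.876 to 1.27. Both of these pairs shared a slide. Day 14 minus day 100 was -0.07 (adjusted p = 0.667), where 51.5% of the tested miRNAs were called, and it was 0.22 under the slide block (adjusted p = 0.412). None of the 3 passed even at an unadjusted p under 0.05. Under the slide block the pairs that lay on different slides stood further apart, with 0.38 for day 8 minus day 5, 0.30 for day 8 minus day 100 and 0.29 for day 14 minus day 5, none of them called (adjusted p = 0.188, 0.311 and 0.388). In the order of the means without that block, the syngeneic grafts came lowest, followed by the allografts of day 5, day 14, day 100 and day 8. No neighbors in this order passed the test in the same fit, with adjusted p = 0.177, 0.995, 0.667 and 0.987 for the 4 steps. Across these further pairs limma called 12.6% (day 14 minus day 5), 1.94% (day 8 minus day 5) and 19.4% (day 8 minus day 100) of the tested miRNAs. A moderated F test over the 5 groups gave an adjusted p of 0.149, and of 0.0435 once the slide was a block.

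MiR-126-3p was among the most even of the tested miRNAs. Its SD over the 15 arrays was 0.148 on the log2 scale, the 2nd lowest of 103, where the median miRNA had 0.451. Because its place near the scaling percentile bears on this value, the SD was also taken after scaling by the mean log2 signal of the other miRNAs. It was then 0.150 and the 3rd lowest. Without any scaling it was 0.528, the 35th lowest. The 103 include miRNAs not detected on every array, whereas miR-126-3p ranked 11th to 18th by brightness among the 52 that were. Its evenness was not compared with that of miRNAs of like brightness. The tested miRNAs whose scaled signals ran most like that of miR-126-3p over the 15 arrays were miR-23a (Pearson's r = 0.83, Spearman's rho = 0.56), miR-15b (r = 0.76, rho = 0.46) and miR-92a (r = 0.76, rho = 0.59). All of these values share arrays and scaling. Without syngeneic replicates 1 and 2, the arrays farthest from the median, the r was 0.36 for miR-23a, 0.21 for miR-15b and 0.56 for miR-92a. After scaling by the mean log2 signal, the 3 most similar were miR-23a (r = 0.81), miR-331-3p (r = 0.79) and miR-350 (r = 0.78).

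The ratio of miR-126-3p to another miRNA on the same array does not depend on the scaling, and was used to set the endothelial marker against those of hepatocytes and leukocytes. No second miRNA of the set was bright enough to serve as partner. Against miR-122, the main hepatocyte miRNA, the log2 ratio of the allografts exceeded the syngeneic mean by 0.78, 0.61 and 0.62 on the 3 arrays of day 5 and by 0.67, 0.82 and 0.74 on day 8. On day 14 it did so by 1.54, 1.14 and 1.19, and on day 100 by 0.77, 0.44 and 0.81. Thus relative to miR-122 the mean signal of miR-126-3p was 1.59-fold, 1.67-fold, 2.45-fold and 1.59-fold higher on the 4 days. Against miR-192 the means were 1.37-fold, 1.74-fold, 2.31-fold and 1.68-fold higher, and against miR-194 they were 1.67-fold, 1.66-fold, 2.36-fold and 1.73-fold higher. In these 12 comparisons with hepatocyte miRNAs, every allograft array lay above every syngeneic array, with an exact two-sided permutation p of 0.1, the smallest that 3 arrays against 3 can give, and 0.125 adjusted over 20 comparisons. All 12 use the same 3 syngeneic arrays and the same values of miR-126-3p. After scaling, miR-122 itself differed from the syngeneic grafts by -0.43, -0.42, -1.05 and -0.36 on the 4 days. The median over all tested miRNAs differed by 0.12, 0.14, 0.07 and 0.00, so a miRNA at that median also rose relative to miR-122. The share of all tested miRNAs that lay above in this way is not given here.

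Relative to miR-223, a miRNA of granulocytes and monocytes, miR-126-3p was lower in every allograft array of days 5, 8 and 14 than in every syngeneic array. The mean log2 difference of the ratio on those days was -1.62, -1.67 and -2.14 (standard errors 0.29, 0.23 and 0.23, exact permutation p = 0.1 for each). On day 100 it was -0.48 (standard error 0.25, exact permutation p = 0.2) and the groups overlapped. The authors had picked miR-223 from these same arrays as higher than in the syngeneic grafts. The direction of this ratio was therefore known beforehand, and its p-values are no independent support. Against miR-142-3p, found in all blood leukocytes, the ratio differed by -1.74 on day 5, with all arrays below the syngeneic ones. It differed by -0.33 on day 8, -1.09 on day 14 and 0.17 on day 100, where the groups overlapped. A ratio shows unequal change and does not tell which of its miRNAs moved.

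**Figure D4:**
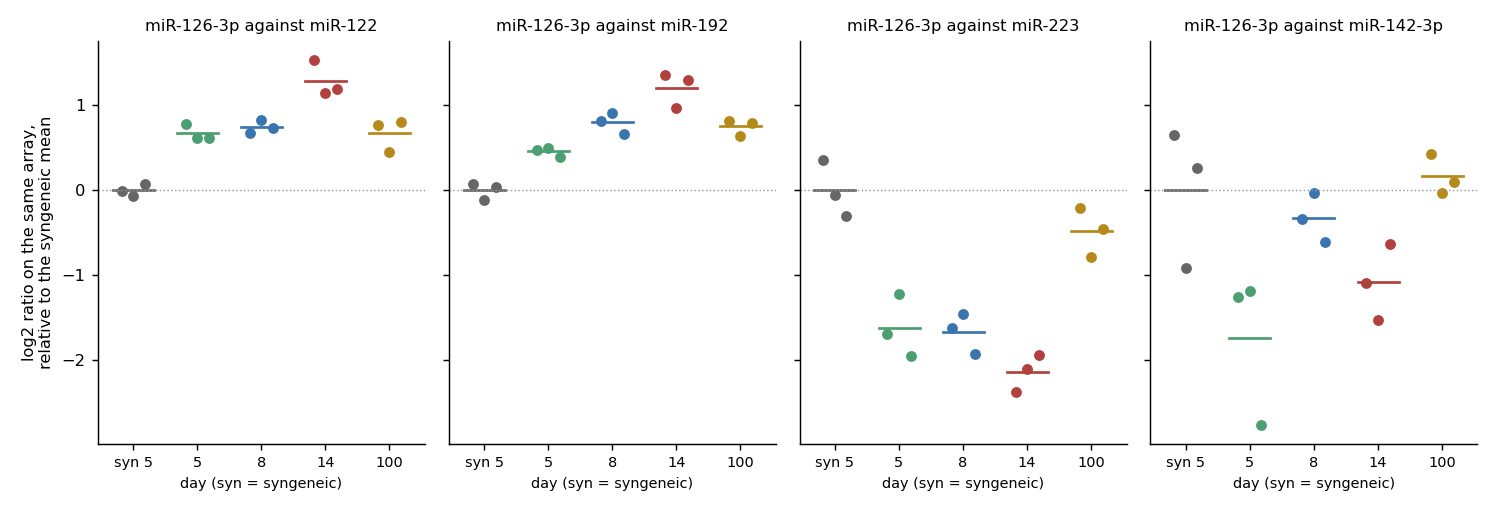
Log2 ratio of miR-126-3p to the hepatocyte miRNAs miR-122 and miR-192 and to the leukocyte miRNAs miR-223 and miR-142-3p on the same array, relative to the mean ratio of the syngeneic grafts (points, single arrays, and bars, group means). The ratio to miR-122 averages 0.67 above the syngeneic mean on day 5 and 1.29 on day 14, while the ratio to miR-223 averages 2.14 below it on day 14 and 0.48 below it on day 100.

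The lists of the other cell types moved as follows with the same comparisons. They hold miRNAs that the authors had picked from these same arrays for their change from the syngeneic grafts. These are miR-223, miR-146a and miR-451 as higher, and miR-148a, miR-101a and miR-101b as lower. The direction of those miRNAs was therefore known beforehand, and their calls are no independent support for the lists. Of the 6 tested leukocyte miRNAs (8 listed), limma called 6, 4, 6 and 3 higher on the 4 days and none lower, and 2, 4, 5 and 1 under the slide block. Among all tested miRNAs 18.4%, 23.3%, 27.2% and 16.5% were called higher and 6.8%, 17.5%, 18.4% and 14.6% lower. The median log2 differences of the leukocyte list were 1.87, 1.59, 1.96 and 0.49, beside 0.12, 0.14, 0.07 and 0.00 over all tested miRNAs. Its summed scaled signal ranged from 0.714 to 1.78 in the syngeneic grafts. The allografts had 3.22 to 8.37 (day 5), 2.46 to 2.87 (day 8), 3.29 to 4.48 (day 14) and 1.25 to 1.67 (day 100). MiR-150, of resting lymphocytes, was detected on no array. MiR-155, miR-342-3p and miR-142-5p were detected on 10, 12 and 13 of 15 arrays. They were tested only because some group detected them on all of its arrays. Where those were allograft groups, their calls are not independent of that filter. Of the 6 hepatocyte miRNAs, 4, 6, 6 and 4 were called lower on the 4 days and none higher (2, 4, 6 and 5 under the slide block), with median differences of -0.48, -0.64, -1.12 and -0.45. Without scaling between arrays, fewer hepatocyte miRNAs were called lower, with 0, 0, 1 and 1 on the 4 days, and 5, 3, 0 and 4 of the 6 lay above the syngeneic grafts. In that fit the median log2 difference over all tested miRNAs was itself 0.54, 0.69, 0.71 and 0.33. With quantile normalization 1, 2, 1 and 1 of the 6 hepatocyte miRNAs lay above, and 1 was called higher on day 100. The summed signal of the hepatocyte list was 31.1 to 37.0 in the syngeneic grafts, and 22.6 to 26.7 (day 5), 23.4 to 25.2 (day 8), 13.6 to 17.6 (day 14) and 23.7 to 28.2 (day 100) in allografts. Of the 2 tested erythroid miRNAs, miR-451 was called higher on days 8 and 14, and miR-144 was called lower on day 8. MiR-144 was detected on 10 of 15 arrays, and the same limit of the filter holds for it. On day 5 the adjusted p of miR-451 was 0.0495 (limma), and this call was lost under the slide block, without a filter and under 4 of the 6 other scalings. The summed signal of the erythroid list was 0.597 to 1.21 in the syngeneic grafts, and 1.097 to 1.99 (day 5), 1.58 to 1.62 (day 8), 1.82 to 2.48 (day 14) and 0.685 to 1.45 (day 100) in allografts. The part of these cells in the values of miR-126-3p was not tested.

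MiR-126-5p was near the detection limit. Its intensity was 9.01, 15.01 and 15.1 units in the syngeneic grafts. Allografts of day 5 gave 19.6, 22.2 and 11.2 units, and those of day 8 gave 13.9, 15.02 and 19.6. It was 17.4, 16.0 and 19.2 on day 14 and -34.5, 13.4 and 15.5 on day 100, the negative value belonging to the noisier replicate 1. MiR-126-5p was detected on syngeneic replicate 3, on replicates 1 and 2 of day 5 and on replicate 3 of day 14, and on no array of days 8 and 100. Of its 2 probes, 1 was above background on those 4 arrays, with a smaller share of its spots above it on 4 more, and the other had no such spot on any array. After scaling, 14 of 15 values lay at the floor of -5.21 on the log2 scale, so that no difference between the groups was detectable at this brightness. Where every spot of a probe had to be above background it was detected on 0 arrays, and by the software's own flag on 12.

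MiR-143 was slightly brighter and more variable. Its intensity was 17.9, 19.8 and 30.3 units in the syngeneic grafts. Allografts gave 64.2, 45.0 and 19.4 on day 5 and 22.7, 17.0 and 27.5 on day 8. It was 25.8, 14.4 and 1.37 on day 14 and 22.6, 21.6 and 46.2 on day 100. The highest values were those of replicate 1 of day 5, replicate 3 of day 100 and replicate 2 of day 5, the 3 arrays on which both probes were above background. Replicate 3 of day 5 lay within the range of the syngeneic grafts, so that the groups overlapped. MiR-143 was detected on 1 syngeneic array, 2 arrays of day 5, none of day 8, 1 of day 14 and 1 of day 100. All of these arrays except that of day 14 lay on slide 2. Since it was detected on all arrays of no group, it was not among the 103 tested miRNAs. When every mouse miRNA with any spread was fitted, the log2 difference of miR-143 was -0.53 on day 8 (adjusted p = 0.262, limma with Benjamini-Hochberg adjustment), -0.63 on day 14 (adjusted p = 0.141), -0.11 on day 100 (adjusted p = 0.809) and 0.26 on day 5 (adjusted p = 0.745). In that fit day 14 minus day 5 of the allografts was -0.89 (standard error 0.27, limma adjusted p = 0.0914), and no difference of miR-143 was called. Day 14 lay on slide 1 and day 5 on slide 2, and this fit had no slide block, so day and slide cannot be told apart there.

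MiR-145, the partner of miR-143 in its transcript, gave no signal. Its summed intensity was negative on all 15 arrays, from -17.5 to -4.93 units, and no spot of its 2 probes was well above background on any array. These arrays therefore gave no level of miR-145 in any group. Its star strand, miR-145*, was likewise detected on no array.

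A further list of 21 miRNAs of vessels, mural cells and stroma was examined beside the set. Of these, 19 were on the array under the listed names and 8 were tested. The 9 that were on the array and never detected were miR-145*, miR-214*, miR-222, miR-503, miR-10b and miR-218, and the muscle miRNAs miR-1, miR-133a and miR-133b. Limma called 0 of the 8 on day 5, and 2 higher and none lower on each of days 8, 14 and 100, where 23.3%, 27.2% and 16.5% of all tested miRNAs were called higher. The share of the list called higher was thus near that of all tested miRNAs on days 8 and 14 and somewhat above it on day 100. On day 5 it was 0, beside 18.4% over all tested miRNAs. None of the 8 was called lower, beside 6.8%, 17.5%, 18.4% and 14.6% over all tested miRNAs on the 4 days. The median log2 difference of the 8 was 0.19, 0.34, 0.15 and 0.25 on the 4 days, beside 0.12, 0.14, 0.07 and 0.00 over all tested miRNAs. The summed scaled signal of the list was 1.23 to 2.07 in the syngeneic grafts, and 1.63 to 1.80 (day 5), 1.83 to 1.85 (day 8), 1.504 to 1.69 (day 14) and 1.72 to 2.06 (day 100) in allografts, so that the ranges of all allograft days overlapped with that of the syngeneic grafts.

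MiR-322 and miR-221 were those called on days 8 and 14. MiR-322, the rodent counterpart of miR-424, is made with miR-503 from 1 cluster and acts on the cell cycle and on angiogenesis. Its scaled log2 signal was -5.18, -5.21 and -4.57 in the syngeneic grafts and -4.44, -4.69 and -4.35 on day 5. It was -4.15, -4.08 and -4.00 on day 8, -3.79, -3.86 and -3.31 on day 14, and -5.21, -5.21 and -5.18 on day 100. All arrays of days 8 and 14 lay above all arrays of the syngeneic grafts, of which 1 of 3 detected miR-322, and above those of day 100, of which 0 of 3 did. MiR-322 was tested only because every array of days 8 and 14 detected it, so its calls on those days are not independent of that filter. The log2 difference over the syngeneic grafts was 0.91 on day 8 (adjusted p = 0.00209) and 1.33 on day 14 (standard error 0.19, adjusted p = 8.1e-05). Day 14 was at least 1.85-fold brighter than day 100 (adjusted p = 0.000107). Under the slide block the differences of days 8 and 14 from the syngeneic grafts were 1.12 and 1.54, and both were called. With a normexp background correction their direction turned, which did not happen under the other 26 alternatives, some of which leave the difference as it was.

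MiR-221, which acts on KIT and cell cycle inhibitors in endothelium and smooth muscle, had scaled log2 signals of -4.68, -4.93 and -4.15 in the syngeneic grafts. It stood at -3.86, -3.73 and -3.69 on day 8 and at -3.32, -3.81 and -3.77 on day 14. Detected on 1 of 3 syngeneic arrays, miR-221 was tested only because days 5, 8 and 14 of the allografts detected it on every array. Its calls on days 8 and 14 are therefore not independent of that filter. The log2 difference of miR-221 was 0.83 on day 8 (adjusted p = 0.0377) and 0.95 on day 14 (adjusted p = 0.0167), and 1.04 and 1.17 under the slide block, both called. Without any 1 of syngeneic replicates 1 and 2 or the 3 arrays of day 8, the call of day 8 was lost, and without syngeneic replicate 2 or replicate 1 of day 14 that of day 14. Its direction also turned with the normexp correction. MiR-222, transcribed with miR-221, was detected on no array.

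On day 100 the called miRNAs were miR-199b and miR-10a. MiR-199b, abundant in fibroblasts and other mesenchymal cells, had scaled log2 signals of -3.56, -3.93 and -2.76 in the syngeneic grafts, -3.25, -3.36 and -3.94 on day 14 and -2.33, -3.02 and -2.01 on day 100. Replicate 2 of day 100 lay below syngeneic replicate 3, so that these groups overlapped, whereas all arrays of day 100 lay above those of day 14. The log2 difference of day 100 was 0.96 over the syngeneic grafts (adjusted p = 0.0281), and that of day 14 from day 100 was -1.06 (adjusted p = 0.0108). MiR-10a, which restrains inflammatory signaling in endothelium, was at -3.82, -4.55 and -3.17 in the syngeneic grafts and -2.51, -3.17 and -2.93 on day 100. It was detected on 2 of 3 syngeneic arrays and on every allograft array, and so was tested through the allografts. Its log2 difference on day 100 was 0.98 (adjusted p = 0.0220), and day 14 minus day 100 was -0.85 (adjusted p = 0.0227). These 4 calls were lost under the slide block, with 0.31 and 0.30 on day 100 over the syngeneic grafts (adjusted p = 0.616 and 0.611) and -0.08 and 0.17 between days 14 and 100, for miR-199b and miR-10a. On day 100 over the syngeneic grafts, the call of miR-199b was also lost without syngeneic replicate 1 or 2 or replicate 1 or 3 of day 100, and that of miR-10a without syngeneic replicate 2 or replicate 1 or 3 of day 100. Between days 14 and 100 the call of miR-10a was lost without replicate 2 or 3 of day 14 or replicate 1 of day 100.

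The other 4 tested miRNAs of the list were not called on any day against the syngeneic grafts. Their log2 differences ran from 0.05 to 0.58 for miR-214, from 0.16 to 0.44 for miR-23b, from -0.25 to 0.10 for miR-27b and from -0.36 to 0.06 for miR-130a. The lowest adjusted p among them was 0.0569, for miR-23b on day 8. MiR-23b and miR-27b have near-identical relatives in miR-23a and miR-27a, and cross-hybridization between them was not tested.

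**Figure D5:**
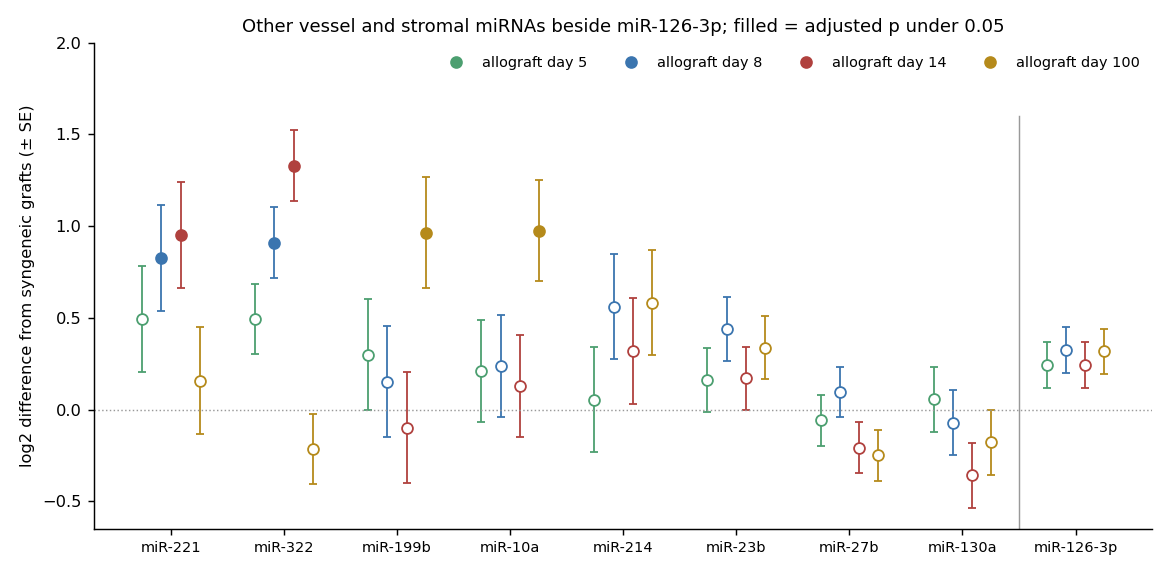
Log2 difference (± SE) between the allografts of each day and the syngeneic grafts for the 8 tested miRNAs of the vessel and stromal list and, on the right, miR-126-3p, with filled points where the adjusted p was under 0.05. MiR-221 and miR-322 are filled on days 8 and 14, miR-199b and miR-10a on day 100, and miR-126-3p on no day.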

How the data were processed

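The authors deposited, for each of the 15 arrays, the spot intensity written by Feature Extraction 9.5.1.1 of Agilent, background-subtracted, on a linear scale and without normalization between arrays, with a flag for spots well above background. A log2 table of the authors was not used. After control and outlier spots were dropped, intensities were averaged per probe and summed per miRNA. The scale of an array was its 75th percentile over 52 miRNAs. A floor of 0.0270 (log2 of -5.21) was set, which held 8.28% of tested values, and log2 was taken, which understates changes of dim miRNAs. Tests covered 103 miRNAs, those that some group detected on each of its 3 arrays, and used limma 3.58.1 (R 4.3.3) with 1 mean per group over 15 arrays, with Benjamini-Hochberg adjustment per comparison and a threshold of 0.05. The methods name Student's t-test, which was run as an alternative.

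The fits were tested on simulated data that held no slide difference and had changes larger than those of miR-126-3p. That check therefore does not cover changes as small as those of miR-126-3p. No 2 arrays of a group were copies. The number of arrays limits the precision. The limma p-values measure the spread between arrays within the groups, pooled over groups, which in the syngeneic group holds both mouse and slide. Without the slide block they do not account for a slide difference between the groups compared. A fold against a group in which no array detected the miRNA is a bound: the dimmer group's mean was taken, per array, from the higher of the lowest detected signal and the miRNA's own. The named miRNAs are the 4 of the set, the tested miRNAs of the lists, and the 3 most correlated with miR-126-3p. The members and lists were chosen with earlier results of these data known. Alternatives were other scalings, probe summaries, background correction (normexp, offset 50), filters and floors, a trend or robust moderation, only the groups compared, slide or replicate number as a block, and each array left out. Scaling without miR-126-3p, scaling by mean log2 the fits within 1 slide and the partner miRNAs of the within-array ratios were chosen after seeing the data. Tables were made in Python 3.11.15 (numpy 2.4.6, scipy 1.17.1, pandas 2.3.3). Sequences and genes are from RefSeq (GRCm38.p6).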

Additional observations from a re-analysis of the deposited data

How the results depend on the processing

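The number of arrays, with 1 syngeneic array on the other slide, limited every comparison, and dim signals limited miR-126-5p, miR-143 and miR-145. The slide block called miR-126-3p on days 8 and 14 (0.42 and 0.34), and the fit within slide 1 on day 8 (0.42). On those days both compare the same arrays as the fit without syngeneic replicate 3. Scaling without miR-126-3p called days 8 and 100 (0.37 and 0.36), and mean log2 scaling days 8, 14 and 100 (0.30, 0.33 and 0.29). The mean log2 over probes gave 0.25, 0.33, 0.26 and 0.31 on days 5, 8, 14 and 100, all called. No filter, detection on all 15 arrays and a limma trend, which leave the differences of 0.32 on days 8 and 100 as they were, called both days, as did the methods' t-test before adjustment. After Benjamini-Hochberg adjustment the t-test called neither. Median scaling called day 14 (0.33) and day 100 (0.30), and the brightest probe called day 100 (0.35). Without scaling the differences were 0.78, 0.95, 1.02 and 0.88, with days 8 and 14 called. The tested miRNAs moved up against the scaled fit by a median of 0.54, 0.63, 0.78 and 0.56. Over the fits without 1 array, the differences of miR-126-3p ranged from 0.19 to 0.34 on day 5, 0.27 to 0.42 on day 8, 0.19 to 0.34 on day 14 and 0.27 to 0.42 on day 100. Between allograft days they ranged from -0.12 to -0.03 (14 minus 8), 0.04 to 0.11 (100 minus 5) and -0.11 to -0.04 (14 minus 100), and none was called. Across the alternatives, adjusted p values spanned 0.0436 to 0.872 on day 5, 0.00812 to 0.565 on day 8, 0.0197 to 0.654 on day 14 and 0.0119 to 0.670 on day 100. The sign of day 14 minus day 8, which was not called, turned with median scaling (0.15), no scaling (0.065) and mean log2 scaling, with or without the slide block (0.037). That of day 14 minus day 100 turned with median scaling (0.031), no scaling (0.14), mean log2 scaling (0.046) and the slide block (0.22). The cause of these changes was not tested.

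MiR-126-5p was detected on 0 arrays where all spots of a probe had to be above background and on 12 by the software's flag, and miR-143 on 12 by that flag. Of the vessel and stromal miRNAs, 1 of 12 was called on day 8 without a filter, where the share over all miRNAs is not given here. Under the slide block 3 of 8 were called higher on day 8, and 1 of 8 was called lower on day 100. That fit called 44.7% and 15.5% of all tested miRNAs on these days, in either direction. None of these counts is read as a result about the list. The slide block left 5, 46, 49 and 16 of the 103 miRNAs called on the 4 days in place of 26, 42, 47 and 32, and 20 in place of 53 between days 14 and 100. Over all alternatives the counts ranged from 1 to 29 on day 5, 20 to 47 on day 8, 21 to 55 on day 14 and 1 to 50 on day 100, and from 0 to 34 (6 as reported), 5 to 38 (30) and 16 to 60 (53) between the allograft days. The replicate numbers did not pair the mice: deviations of same-numbered arrays correlated from -0.65 to 0.45, above 0.1 for 4 of 12 pairs, and 3 of 12 allograft arrays were closest to the syngeneic array of their own number. With the replicate number as a block the differences of miR-126-3p were 0.24, 0.32, 0.24 and 0.32 (adjusted p = 0.217, 0.0763, 0.164 and 0.0872), and no call on it changed.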
